A study of Mus musculus with 4 samples.

Results

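The transcripts described here come from 8 genes that store, release, carry or move iron: Fth1 and Ftl1, Ncoa4, Trf, Tfrc, Slc11a1, Slc11a2 and Slc40a1. They were chosen by gene symbol, and all 8 were found among the 31053 genes of the count matrices. Their levels were read in barcodes with at least 1000 unique molecular identifiers (UMIs, 1 per captured transcript molecule) and at most 10% mitochondrial UMIs. Barcodes in which globin made up 5% of UMIs or more were kept apart as erythroid.

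Cells released from the long bones of the hind legs (tibia and femur) of 2 Ctrl and 2 HLU mice were sequenced one by one, with 1 library per replicate. The mice were wild-type, and the methods give C57BL/6J as the strain used for unloading. HLU mice had spent 28 days in hindlimb unloading, in which suspension by the tail takes the load off the hind legs, and Ctrl mice had not been suspended. Their age is uncertain, since the methods have 8 weeks at the start and the series text has postnatal day 28. Bones had been flushed of marrow and digested, so the cells are those that stayed with the bone and survived digestion. The comparison asks how cell types of unloaded bone differ from those of loaded bone.

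Iron is stored inside ferritin, a hollow shell built of heavy (Fth1) and light (Ftl1) chains, of which the heavy chain oxidises iron on entry. Transferrin (Trf) carries iron in the blood, the transferrin receptor (Tfrc) takes it into the cell, and Slc11a2 (DMT1) moves it from the endosome to the cytosol. Slc11a1 (NRAMP1) exports metal ions from the phagosome, Ncoa4 brings ferritin to the lysosome for release of its iron, and Slc40a1 (ferroportin) is the exporter at the cell surface. Red cell precursors need the most iron, and macrophages recover it from old red cells. In low iron, IRP proteins bind hairpins called iron-responsive elements, which blocks translation of ferritin and ferroportin and stabilises Tfrc mRNA. Such control acts partly on translation, which transcript counts do not measure.

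A match to a strict form of the hairpin was found in 4 of the 8 genes. The matching stretches are shown, read from GENCODE M21 transcripts on mm10. The search asked for C, 5 bases, the loop CAGTGN and 5 bases pairing with the first 5 (G with T allowed), on the transcript strand. At least 1 protein-coding transcript of 294 of 21901 genes (1.34%) held a match. The loop is in capitals, and each run has 29 bases.
Fth1: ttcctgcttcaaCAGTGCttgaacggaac
Ftl1: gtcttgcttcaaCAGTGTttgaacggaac
Slc40a1: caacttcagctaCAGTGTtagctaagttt
Tfrc, site 1: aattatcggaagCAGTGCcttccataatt
Tfrc, site 2: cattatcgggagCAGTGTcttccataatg
Tfrc, site 3: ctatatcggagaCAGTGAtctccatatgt
Tfrc, site 4: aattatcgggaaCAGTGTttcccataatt

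The matches of the ferritin chains and of ferroportin lie in the 5′ UTR, in exon 1. They are at chr19:9982732-9982760 on the plus strand for Fth1, at chr7:45459779-45459807 on the minus strand for Ftl1 and at chr1:45925465-45925493 on the minus strand for Slc40a1. The Tfrc matches lie in the 3′ UTR, in exon 19, on the plus strand at chr16:32631219-32631247, chr16:32631598-32631626, chr16:32631663-32631691 and chr16:32631710-32631738. No transcript of the other 4 genes held these letters, which says nothing of other forms of the element. The genes themselves lie on mm10 at chr9:103204001-103230444 (Trf), chr1:74375195-74386062 (Slc11a1), chr15:100387898-100425072 (Slc11a2) and chr14:32159865-32179855 (Ncoa4).

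The libraries held 47819046 to 99849070 UMIs and, under the rule, 7346 and 7652 barcodes in Ctrl and 7772 and 9715 in HLU. Wherever 4 values follow each other, they are those of Ctrl replicates 1 and 2, then of HLU replicates 1 and 2. Erythroid barcodes numbered 9, 16, 59 and 447. After removal of putative doublets the other barcodes formed 35 clusters, of which 27 were named in 13 cell types from marker lists. Each type had at least 5 of its markers raised, by a log2 fold change of 1 or more over the other barcodes. Dendritic cells had 5 of 9 raised, with 1 marker at 0 UMIs. Monocytes had 6 of 9 raised (not Ly6c2, Fn1 and Klf4) and stromal cells 7 of 9 (not Lepr and Adipoq). In the other named types every listed marker found in the matrices was raised. Unnamed clusters held 16.8%, 20.9%, 19.4% and 17.7% of the kept barcodes. Barcodes shared between 2 libraries numbered 13 to 22. The HLU libraries were poor in skeletal cells, with 102 and 92 chondrocytes against 1744 and 1481 in Ctrl and 71 and 86 stromal cells against 1494 and 766. No cluster was named as osteoblasts.

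Ferritin supplied most of the UMIs of these genes. Fth1 and Ftl1 together made up 4.70%, 3.98%, 4.06% and 5.42% of all UMIs in the barcodes of the rule. Levels below are in CPM, a gene's UMIs per 10 to the power 6 UMIs of the summed barcodes of a type in a library. A 3′ UMI is counted once per molecule, so no scaling by gene length applies. Levels across types are a description without a test, since the types were formed from the same barcodes. Clusters were formed without the 8 genes.

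Fth1, the ferritin heavy chain, stood highest in macrophages, with 82266 and 84938 CPM in the Ctrl libraries and 81847 CPM in HLU replicate 2. HLU replicate 1 held no macrophage and both Ctrl libraries held 5 each, so these values rest on 2408 and 3498 UMIs in Ctrl. Stromal cells (46121 ± 9545 CPM, SD, n = 4), mature (stage II) neutrophils (45708 ± 10044 CPM) and monocytes (38606 ± 15942 CPM) followed, with ranges that overlapped. Chondrocytes held 30822 CPM and endothelial cells 24365 CPM. Dendritic cells, neutrophil progenitors, immature (stage I) neutrophils and basophils and mast cells lay between 9466 and 12380 CPM. T and NK cells, B cells and megakaryocytes had the lowest means, from 4551 to 5415 CPM. Apart from the step below macrophages, each type overlapped its neighbour in the order.

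Ftl1, the ferritin light chain, also had its highest means in macrophages (19176 ± 7477 CPM, n = 3) and mature neutrophils (17825 ± 1815 CPM, n = 4). The range of mature neutrophils, from 16008 to 19977 CPM, lay wholly above that of monocytes, the next type, at 10742 to 14823 CPM. Basophils and mast cells (12245 CPM) and stromal cells (11856 CPM) were near monocytes. Chondrocytes held only 5039 ± 1278 CPM although their Fth1 was high. Endothelial cells, immature neutrophils, megakaryocytes, neutrophil progenitors and dendritic cells lay between 4460 and 9413 CPM. B cells (2463 ± 548 CPM) and T and NK cells (3106 ± 2193 CPM) had the lowest means. A processed copy, Ftl1-ps1, received UMIs equal to 0.803% to 1.16% of those of Ftl1 per library, so reads shared between them leave the Ftl1 count slightly uncertain.

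The mix of the chains varied with the cell type. Fth1 took 85.5% ± 4.91 (SD, n = 4) of ferritin UMIs in chondrocytes and 79.3% ± 5.52 in stromal cells. The share was 71.5% ± 3.88 in mature neutrophils, 53.7% ± 4.54 in immature neutrophils and 64.4% ± 4.62 in neutrophil progenitors. The light chain had the larger part in megakaryocytes, where Fth1 took 43.9%, 37.6%, 28.0% and 32.9%. In basophils and mast cells the share varied between libraries, at 34.0%, 52.2%, 32.3% and 50.4%.

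**Figure D1:**
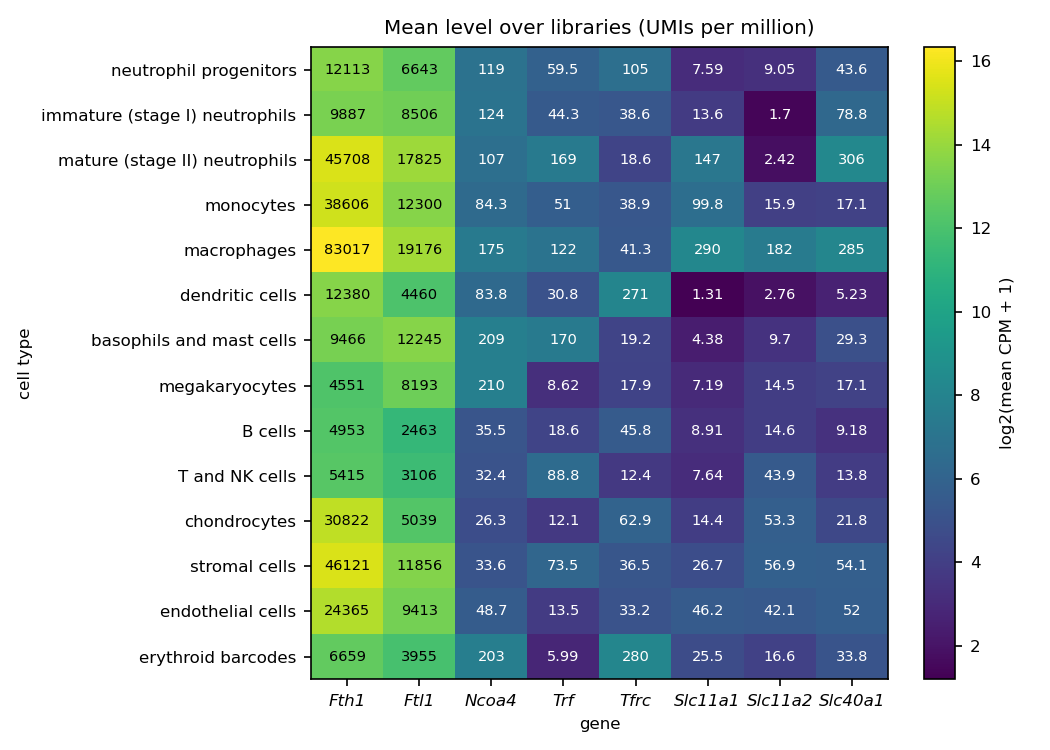
Mean level of each gene (columns) in each named cell type and in erythroid barcodes (rows), in CPM over the libraries that hold the type, coloured by log2(mean CPM + 1). The ferritin chains lie above the other genes in every row, with 83017 CPM of Fth1 in macrophages, while Slc11a2 falls to 1.70 CPM in immature neutrophils.

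**Figure D2:**
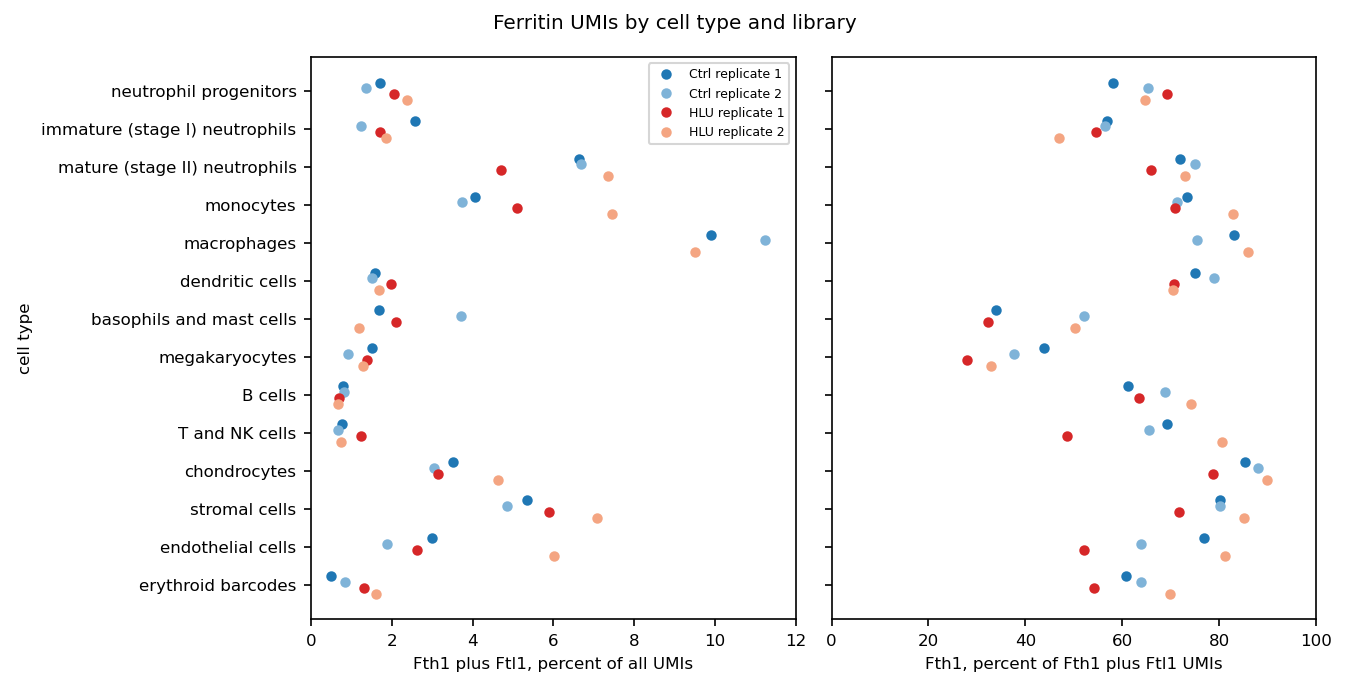
Left, Fth1 plus Ftl1 as a percent of all UMIs; right, Fth1 as a percent of Fth1 plus Ftl1, by cell type (rows) with 1 point per library. Macrophages lie between 9.51% and 11.3% on the left, and megakaryocytes have the lowest mean share of Fth1 on the right, 35.6%.

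Of the clusters that could not be named, cluster 14 carried more ferritin than any named type. This cluster, led by Clec4n, Creg1 and Prdx1 and nearest to mature neutrophils, held Fth1 at 109164, 94704, 96898 and 108796 CPM and Ftl1 at 95353, 91551, 90417 and 58456 CPM. Ferritin thus took 16.7% to 20.5% of all UMIs in its 831 barcodes. Cluster 5, led by Serpinb2 and Cxcl3 and nearest to monocytes, held Fth1 at 84058, 86393, 80771 and 119862 CPM, and its ferritin, 10.6% to 14.1% of UMIs, overlapped that of macrophages. Both clusters carried Slc11a1 at 349 to 480 CPM, and cluster 14 carried Slc40a1 at 429, 553, 583 and 223 CPM. Cluster 5 had Slc40a1 at only 5.98 to 61.1 CPM. Ftl1 was itself among the 10 leading genes of cluster 14, so its level there is no finding.

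Ncoa4, the receptor that delivers ferritin to the lysosome, had another order of types than Fth1. Its means were highest in megakaryocytes (210 ± 71.1 CPM), basophils and mast cells (209 ± 105 CPM) and erythroid barcodes (203 ± 128 CPM). Macrophages held 175 CPM, and the 3 neutrophil types held 107 to 124 CPM. Monocytes (84.3 CPM) and dendritic cells (83.8 CPM) lay below them, then endothelial cells (48.7 CPM). Chondrocytes, T and NK cells, stromal cells and B cells held 26.3 to 35.5 CPM. Every type overlapped the next one in this order.

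Tfrc, the receptor that brings transferrin iron into the cell, had its highest mean in erythroid barcodes, at 0, 120, 448 and 552 CPM. The Ctrl values rest on 0 and 9 UMIs against 91 and 1154 in HLU, so no comparison between the groups was possible there. Dendritic cells came next with 168, 298, 141 and 479 CPM from 13 to 27 UMIs. Neutrophil progenitors held 19.6, 45.5, 24.9 and 330 CPM. In that type HLU replicate 2 alone was high, and 48.4% of the Tfrc UMIs of HLU replicate 2 lay in its progenitors, counted over kept and erythroid barcodes without putative doublets. Chondrocytes held 62.9 ± 34.8 CPM and made up 46.0% and 39.6% of the Tfrc UMIs of the Ctrl libraries over the same barcodes. The other types had means of 12.4 to 45.8 CPM, and among B cells the cluster of precursors led by Vpreb3 and Vpreb1 held 109 CPM, a mean of 3 libraries since HLU replicate 2 had 0 barcodes there, against 32.2 CPM in the other cluster.

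Trf, the carrier of iron in plasma, was read at low levels. Basophils and mast cells held 259, 132, 159 and 130 CPM, and mature neutrophils held 252, 209, 204 and 10.7 CPM. HLU replicate 2 was the lowest of the libraries for Trf in 7 of the 9 types that had at least 20 barcodes in every library. T and NK cells held 88.8 CPM and stromal cells 73.5 CPM on average, the latter from 2 unlike groups that are compared below. Macrophages held 122 CPM. Neutrophil progenitors, monocytes, immature neutrophils, dendritic cells and B cells followed from 59.5 down to 18.6 CPM. Chondrocytes, endothelial cells, megakaryocytes and erythroid barcodes held 5.99 to 13.5 CPM.

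Slc11a1, the metal transporter of phagosomes, had its highest means in phagocytes. Macrophages held 273, 267 and 329 CPM in the 3 libraries that had them, a range wholly above that of mature neutrophils at 117, 137, 108 and 225 CPM. The macrophage values rest on only 8, 11 and 83 UMIs. Monocytes held 42.5, 94.5, 104 and 158 CPM. Immature neutrophils (13.6 CPM), neutrophil progenitors (7.59 CPM), B cells (8.91 CPM) and T and NK cells (7.64 CPM) were low, as were megakaryocytes (7.19 CPM) and basophils and mast cells (4.38 CPM), and dendritic cells gave 1 UMI in all. Endothelial cells held 46.2 CPM and stromal cells 26.7 CPM, from values of 12.8 to 107 CPM and 4.54 to 58.0 CPM. Slc11a2, its relative in the endosome, had another pattern. After macrophages (182 ± 85.8 CPM, from 41 UMIs), stromal cells (56.9 ± 10.1 CPM) and chondrocytes (53.3 ± 8.22 CPM) had the highest means. T and NK cells (43.9 CPM) and endothelial cells (42.1 CPM) were close to them. Monocytes, B cells, megakaryocytes, basophils and mast cells and neutrophil progenitors held 9.05 to 15.9 CPM. It was nearly missing from mature (2.42 ± 1.76 CPM) and immature neutrophils (1.70 ± 1.05 CPM), the types with the lowest means.

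Slc40a1, the iron exporter, had its highest means in mature neutrophils, at 289, 281, 531 and 123 CPM, and in macrophages, at 547, 0 and 309 CPM. The macrophage values rest on 16, 0 and 78 UMIs. Immature neutrophils held 78.8 ± 32.0 CPM, and stromal (54.1 CPM) and endothelial cells (52.0 CPM) followed. Monocytes held only 17.1 CPM, and dendritic cells gave 4 UMIs in all. Mature neutrophils held 36.1%, 46.9%, 52.7% and 42.1% of the Slc40a1 UMIs in the kept and erythroid barcodes of a library, without putative doublets, and immature neutrophils a further 14.6% to 30.3%. B cells, T and NK cells, megakaryocytes, chondrocytes and basophils and mast cells had means of 9.18 to 29.3 CPM, and neutrophil progenitors had 43.6 CPM.

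Levels of these genes shifted along the neutrophil series. Slc40a1 was higher in mature neutrophils than in progenitors of the same library in 4 of 4 libraries (289 against 47.5, 281 against 35.2, 531 against 70.2 and 123 against 21.5 CPM). Slc11a1 stood at 108 to 225 CPM in mature neutrophils and at 4.01 to 11.9 CPM in progenitors. Fth1 was 31085 to 53680 CPM in mature neutrophils and 8918 to 15408 CPM in progenitors. It did not rise steadily, since immature neutrophils held 7005 to 14574 CPM. Their mean, 9887 CPM, was below the 12113 CPM of progenitors. Within mature neutrophils, the cluster led by Mmp9 and Mmp8 held 17086 CPM of Fth1 and 171 CPM of Slc40a1, the cluster led by Ccl6 and Cxcr2 held 40365 and 317 CPM, and the cluster led by Il1rn and Ccl3 held 87500 and 631 CPM. Fth1 and Slc40a1 did not rise together in every cluster. In each library the cluster led by Rgs1 and Hcar2 had a larger share of its UMIs in Fth1 than the Il1rn-led cluster. Its share in Slc40a1 was smaller in each library. In Ctrl replicate 1 the counts were 30735 and 59 of 270595 UMIs, against 35162 and 196 of 354288 in the Il1rn-led cluster. Tfrc ran the other way in HLU replicate 2, from 330 to 84.0 to 13.6 CPM along the 3 stages, while the other libraries stayed between 12.5 and 45.5 CPM.

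**Figure D3:**
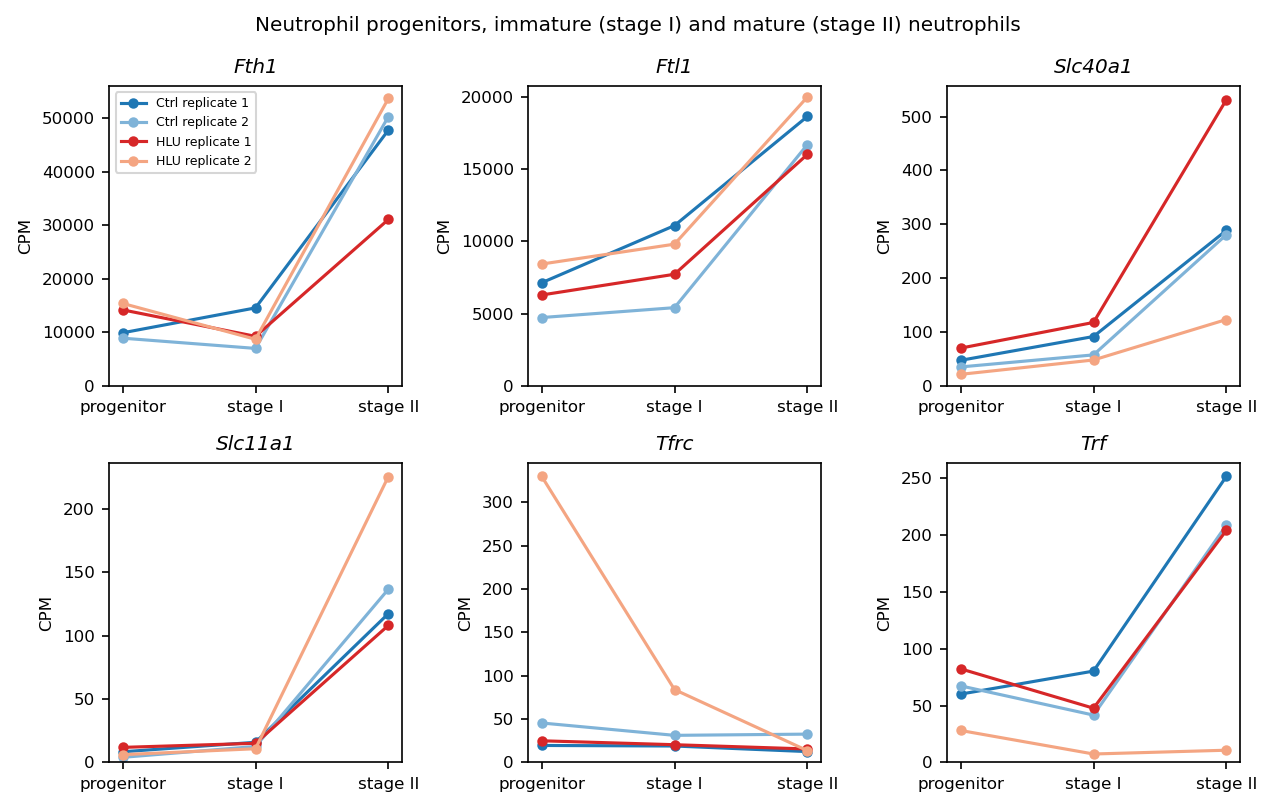
Level (CPM, axes from 0) of 6 genes in neutrophil progenitors, immature (stage I) and mature (stage II) neutrophils, with 1 line per library. Fth1, Ftl1, Slc40a1 and Slc11a1 are highest in stage II in all 4 libraries, and HLU replicate 2 departs in Tfrc (330 CPM in progenitors) and Trf (10.7 CPM in stage II).

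Likeness of pattern was measured as Pearson's r of log2(CPM + 1), averaged over libraries, across the 13 named types, among 6282 genes with at least 50 CPM in a type. With 13 points that share libraries and depth this is a description. Fth1 was most like Mitf (r = 0.95), Ptgs2 and Ifi204. Ftl1 was most like Mindy1 (r = 0.91), its copy Ftl1-ps1 and Riok3. Slc11a1 was most like Soat1 (r = 0.94), Pla2g7 and Ehd1, and Slc11a2 most like Trio (r = 0.97), Pttg1 and Ago3. Slc40a1 was most like Triobp (r = 0.90), Slc7a11 and Npepps, and Ncoa4 most like Cd300a (r = 0.91), Vamp8 and Eloa. The nearest genes of Tfrc (Ankrd9, r = 0.90, Kdm1b and Insig1) and of Trf (Dtx4, r = 0.81, Cept1 and 3110002H16Rik) were less close. Among the 8 genes themselves the closest pair was Fth1 and Slc11a1 (r = 0.76), and Tfrc had a negative r with each of the other 7, from -0.53 with Trf to -0.02 with Fth1.

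HLU and Ctrl were compared within 9 cell types with at least 20 barcodes in every library, and in chondrocytes and stromal cells summed as skeletal cells. UMIs were summed per library and tested with edgeR's quasi-likelihood test, with adjusted p-values over all genes tested in a type. Of 72 pairs of gene and type that passed the filter on low counts, edgeR called 3 at an adjusted p under 0.05. By the same test 16 pairs had an unadjusted p under that value. Of the 8 genes, 5 had such an unadjusted p in stromal cells, 5 in skeletal cells and 3 in chondrocytes. Over all genes 3131 of 11569, 3313 of 13246 and 2134 of 12224 had one there. The call in skeletal cells shares its barcodes with the stromal and chondrocyte sums. The HLU libraries lay on opposite sides of both Ctrl libraries in 19 pairs, a count that was not made over all genes. The 58 pairs that were neither called nor apart with a log2 fold change of at least 1 in size had log2 fold changes from -1.28 to 2.18, with a lowest adjusted p of 0.14 by edgeR and a median SE of 0.42 (n = 2 against 2).

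Stromal cells of HLU mice, summed over their clusters, carried more Trf and Slc11a1. Trf stood at 11.7 and 15.7 CPM in Ctrl and at 164 and 103 CPM in HLU, from 145, 139, 139 and 161 UMIs. Slc11a1 stood at 4.54 and 5.41 CPM in Ctrl and at 38.9 and 58.0 CPM in HLU, from 56, 48, 33 and 91 UMIs. Neither pair of groups overlapped. The log2 fold change was 2.88 ± 0.29 (SE) for Trf (edgeR, adjusted p = 0.022) and 2.94 ± 0.32 for Slc11a1 (edgeR, adjusted p = 0.023). In stromal cells 677 of 11569 genes, 5.85%, passed the same threshold, against 2 of 8 iron genes. Without Ctrl replicate 1 both lost the call (edgeR, adjusted p = 0.054 for each).

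The stromal cells of the groups were not the same mixture. A cluster led by Col1a1, Col1a2 and Ptx3 made up 24.4% and 35.1% of stromal cells in Ctrl and 63.4% and 53.5% in HLU. Within that cluster Trf stood at 17.5, 26.7, 183 and 140 CPM and Slc11a1 at 6.20, 8.90, 46.2 and 72.6 CPM, and both were called there (edgeR, log2 fold change 2.64 ± 0.31, adjusted p = 0.015, and 2.78 ± 0.37, adjusted p = 0.021). The stromal cluster led by Npy and Igfbp6 held Trf at 0 to 4.96 CPM in all 4 libraries. In the one led by Hspa1a and Myoc, Trf was 17.96, 15.9, 99.6 and 60.0 CPM. This last comparison rests on 23 and 11 HLU barcodes with 8 and 3 Trf UMIs and was not tested. Slc11a1 gave 29, 35, 33 and 81 UMIs in the Col1a1-led cluster. It gave 22, 4, 0 and 1 in the one led by Hspa1a and Myoc, and 5, 9, 0 and 9 in the one led by Npy and Igfbp6. The stromal Slc11a1 UMIs of HLU thus came mostly from the Col1a1-led cluster, and a rise in the other clusters was not tested.

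Neutrophil transcripts (S100a8, S100a9, Ngp, Camp and Retnlg) moved with these results. They took 0.190% and 0.409% of stromal UMIs in Ctrl and 1.503% and 1.13% in HLU, while skeletal transcripts (collagens, Acan, Comp, Dcn, Bglap and Sparc) were at 4.24% and 4.25% against 1.46% and 1.26%. In the HLU libraries the neutrophil transcripts of stromal cells stood at 6.47% and 3.66% of their level in mature neutrophils of the same library. Slc11a1 stood at 36.0% and 25.7% of its level there. Trf in stromal cells of HLU replicate 1, 164 CPM, was 80.3% of the 204 CPM in the mature neutrophils of that library, whereas in HLU replicate 2 the 103 CPM of stromal cells was above the 10.7 CPM of mature neutrophils. What part free or neighbouring neutrophil RNA had in the Trf and Slc11a1 results was not tested.

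Tfrc and Slc40a1 also lay apart in stromal cells without passing the test. Tfrc was 16.1 and 19.5 CPM in Ctrl and 37.7 and 72.6 CPM in HLU (log2 fold change 1.31 ± 0.36, edgeR, adjusted p = 0.091). Slc40a1 was 15.1 and 25.5 CPM in Ctrl and 126 and 49.7 CPM in HLU (1.69 ± 0.46, edgeR, adjusted p = 0.088). Slc11a2 lay apart in the other direction, also without passing. After TMM scaling it was 72.4 and 73.1 CPM in Ctrl and 35.8 and 53.1 CPM in HLU (-0.69 ± 0.25, edgeR, adjusted p = 0.15). The ferritin chains were near 0 in log2 fold change after TMM scaling (-0.05 for Fth1 and 0.04 for Ftl1), while their share of stromal UMIs was 5.36%, 4.85%, 5.90% and 7.08%. The median of all 8 genes was 0.93 in log2 fold change, and 6 were positive. Over all 11569 genes tested in stromal cells the median was -0.003, and the share of positive ones was not counted.

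**Figure D4:**
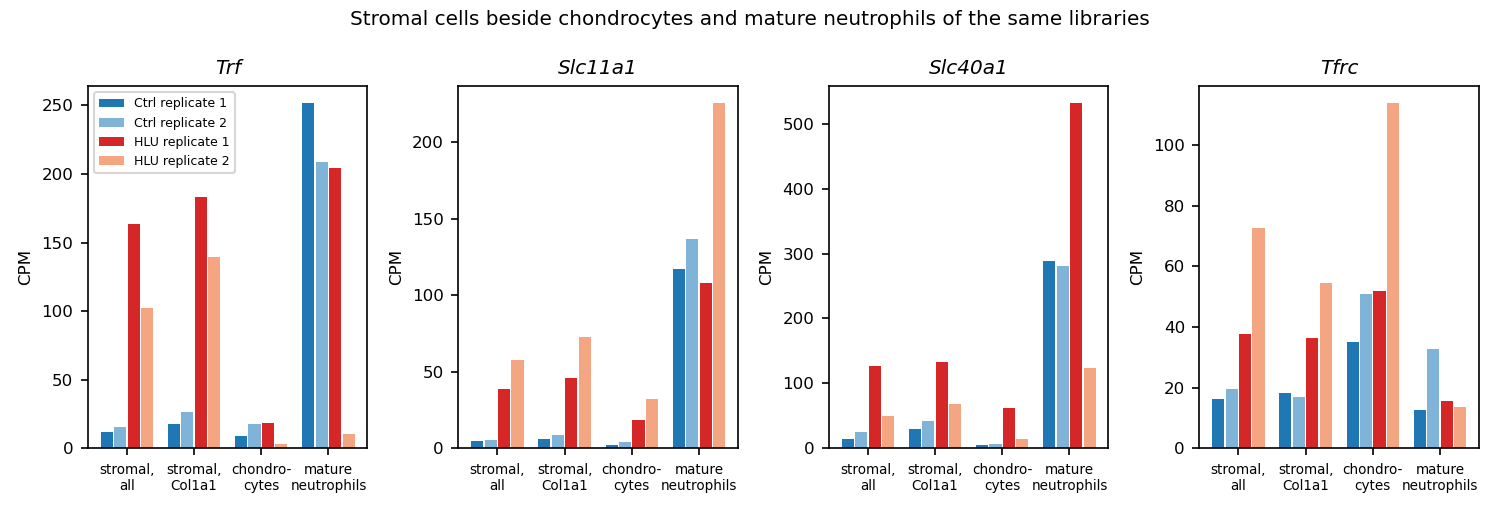
Level (CPM, bars from 0) of Trf, Slc11a1, Slc40a1 and Tfrc in each library, in all stromal cells, the Col1a1-led stromal cluster, chondrocytes and mature neutrophils. In stromal cells the HLU bars of Trf (164 and 103 CPM) lie above the Ctrl bars (11.7 and 15.7 CPM), while in mature neutrophils HLU replicate 2 is the lowest at 10.7 CPM.

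In chondrocytes 3 genes lay apart with a log2 fold change above 1, and none of the 8 passed the test. The share of all genes that lay apart in this way was not counted. By edgeR 2134 of 12224 genes had an unadjusted p under 0.05 in chondrocytes, and 3 of the 8 did. Slc11a1 was 2.33 and 4.28 CPM in Ctrl and 18.7 and 32.2 CPM in HLU (log2 fold change 2.64 ± 0.49, edgeR, adjusted p = 0.094). Slc40a1 was 4.38, 6.22, 62.7 and 14.0 CPM (2.49 ± 0.65, edgeR, adjusted p = 0.16), with HLU replicate 1 far above the rest. Ncoa4 was 14.0, 12.6, 45.4 and 33.3 CPM (1.24 ± 0.27, edgeR, adjusted p = 0.12). Neutrophil transcripts were higher with them, at 0.155% and 0.327% of chondrocyte UMIs in Ctrl and 4.13% and 2.01% in HLU, and their part in these values was not tested. Only 24 of 12224 genes, 0.196%, were called in chondrocytes. Without HLU replicate 1 Slc11a1 was called, and without HLU replicate 2 Slc40a1 was called (edgeR, adjusted p = 0.046 and 0.026), in fits that called 622 of 13433 and 309 of 13430 genes.

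Summed skeletal cells repeated the stromal result for Slc11a1 (log2 fold change 2.92 ± 0.37, edgeR, adjusted p = 0.041), with 317 of 13246 genes, 2.39%, called. Trf (2.16 ± 0.35, edgeR, adjusted p = 0.051) and Slc40a1 (2.20 ± 0.49, edgeR, adjusted p = 0.083) lay apart without passing. So did Ncoa4 (0.92 ± 0.29, edgeR, adjusted p = 0.14), and Slc11a2 in the other direction (-0.50 ± 0.18, edgeR, adjusted p = 0.17). The sum holds the same barcodes and is no independent test. Slc11a1 lost the call without Ctrl replicate 1 (edgeR, adjusted p = 0.11) and without Ctrl replicate 2 (edgeR, adjusted p = 0.054).

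No iron gene of the 8 passed the test in neutrophils. In mature neutrophils, where 248 of 9096 genes (2.73%) were called, Trf was lower in both HLU libraries (204 and 10.7 against 252 and 209 CPM; log2 fold change -1.18 ± 1.003, edgeR, adjusted p = 0.68). That difference lies in HLU replicate 2: without it the log2 fold change was -0.25. Slc11a2 was lower in both HLU libraries of mature (3.96, 3.86, 0.48 and 1.39 CPM; -1.74 ± 0.71, edgeR, adjusted p = 0.46) and immature neutrophils (2.89, 2.28, 0.75 and 0.88 CPM; -1.66 ± 0.50, edgeR, adjusted p = 0.41), from 4 to 21 UMIs a library. Skeletal transcripts were lower too in mature neutrophils, at 0.177% and 0.158% of UMIs in Ctrl and 0.0033% and 0.0010% in HLU. Skeletal cells are among the types with the highest Slc11a2, and the part of their RNA in this difference was not tested. In immature neutrophils 107 of 10387 genes (1.03%) were called and in neutrophil progenitors 21 of 9206 (0.228%).

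The HLU libraries lay on opposite sides of Ctrl for some genes of mature neutrophils. Slc40a1 in mature neutrophils was highest in HLU replicate 1 (531 CPM) and lowest in HLU replicate 2 (123 CPM), with both Ctrl libraries between (289 and 281 CPM). Fth1 went the other way, with HLU replicate 1 lowest (31085 CPM) and HLU replicate 2 highest (53680 CPM) around 47780 and 50287 CPM. The mixture of mature neutrophils differed between libraries. The Fth1-rich cluster led by Il1rn and Ccl3 made up 14.5%, 16.6%, 14.7% and 29.4% of them. That led by Rgs1 and Hcar2, also rich in Fth1, made up 10.8%, 11.4%, 4.13% and 0.434%. What part the mixture had in the Fth1 and Slc40a1 values was not tested. With HLU replicate 1 left out edgeR called 6 of the 8 genes in mature neutrophils, with Slc40a1 lower (log2 fold change -0.80, adjusted p = 0.0039) and Fth1 higher (0.54, adjusted p = 0.0070). With HLU replicate 2 left out it called 3, with Slc40a1 higher (0.82, adjusted p = 0.0058) and Fth1 lower (-0.74, adjusted p = 0.0032). These fits called 3937 of 9090 and 759 of 9086 genes, so many other genes were called with them. Both fits take the spread of the lone HLU library from the Ctrl pair. Over the 9 types HLU replicate 1 was the highest library for Slc40a1 in 8, and HLU replicate 2 was the lowest in 7.

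Tfrc in neutrophil progenitors had a log2 fold change of 2.18 ± 1.03 (edgeR, adjusted p = 0.86), and without HLU replicate 2 the sign turned (-0.55). In monocytes, where 2 of 9442 genes (0.0212%) were called, 0 of the 8 passed edgeR's test and 0 had an unadjusted p under 0.05. Over all monocyte genes 524 of 9442 had such a p. Monocyte Fth1 was 29790 and 26611 CPM in Ctrl and 36278 and 61746 CPM in HLU, and Trf was 58.3, 74.3, 60.8 and 10.5 CPM (after scaling, both HLU values were below Ctrl; log2 fold change -1.01 ± 0.76, edgeR, adjusted p = 0.75). Without HLU replicate 1 edgeR called 5 of the 8 in monocytes and 3 in progenitors, and without HLU replicate 2 it called 1 and 0. Over all genes the fits without HLU replicate 1 called 3645 of 9578 in monocytes and 2664 of 9445 in progenitors, and those without HLU replicate 2 called 358 of 9501 and 155 of 9318.

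**Figure D5:**
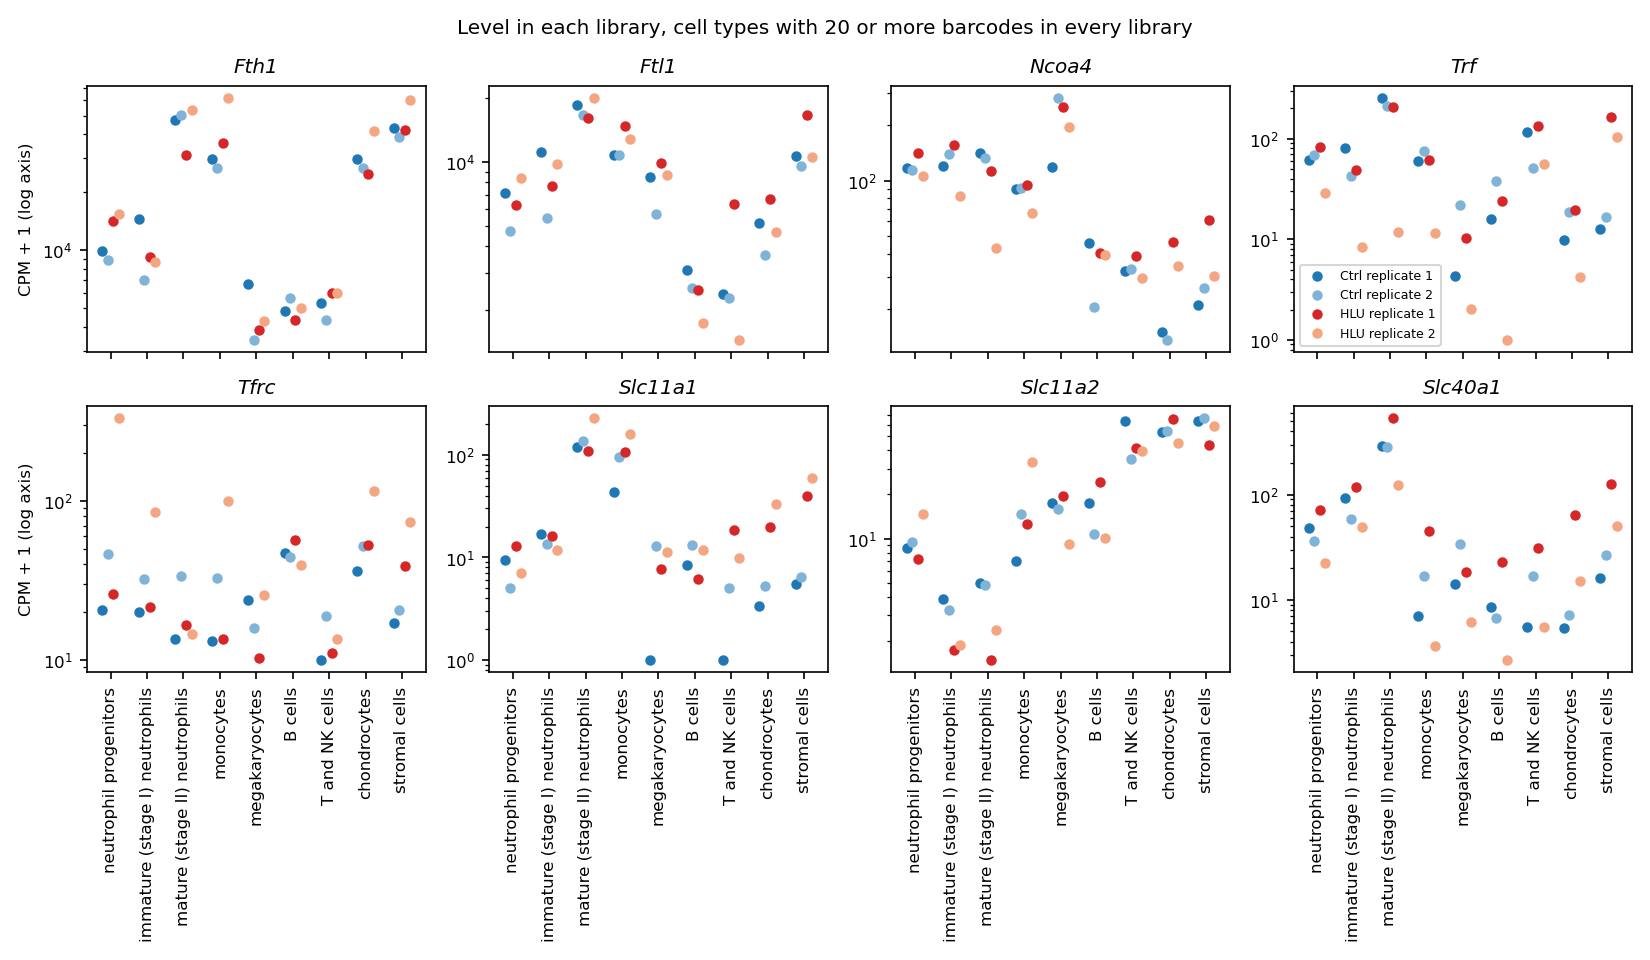
Level (CPM + 1, log axis) of the 8 genes in the 9 cell types with at least 20 barcodes in every library, 1 point per library. The HLU points stand apart from Ctrl for Trf and Slc11a1 in stromal cells, whereas HLU replicate 1 and HLU replicate 2 lie on opposite sides of Ctrl for Slc40a1 in mature neutrophils (531 and 123 CPM).

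Lymphoid cells and megakaryocytes gave no call among the 8. Calls over all genes numbered 43 of 8329 (0.516%) in B cells, 26 of 5676 (0.458%) in T and NK cells and 16 of 6545 (0.244%) in megakaryocytes. Of the 8 genes 7, 5 and 4 passed the filter on low counts there, and 1, 0 and 0 had an unadjusted p under 0.05 by edgeR. Over all genes 397 of 8329, 323 of 5676 and 431 of 6545 had such a p. The B cell result depended on where 1 mixed cluster was put. Cluster 21, unnamed and kept out of B cells, held Fth1 at 53856 and 42858 CPM in Ctrl and at 2959 and 3440 CPM in HLU. Its Ctrl barcodes carried skeletal transcripts (3.37% and 2.20% of UMIs) that its HLU barcodes held at 0.0010% and 0.00065%, and its HLU barcodes carried more B cell transcripts (0.568% and 0.192% against 0.006% and 0.031%). Under 3 other settings its barcodes joined B cells, and Fth1, Ftl1 and Slc11a2 were then called lower in HLU B cells. Those settings called 1874 of 10578, 1976 of 10596 and 1770 of 10543 genes in B cells, of which 1552, 1607 and 1422 were lower in HLU.

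Fth1's share of ferritin UMIs did not separate the groups by more than a test over 2 against 2 libraries can show, since the two-sided exact permutation test cannot go below p = 0.33. Among the sums tested with edgeR, that value was reached in megakaryocytes (HLU minus Ctrl -10.3 percentage points) and immature neutrophils (-5.82 percentage points, exact permutation p = 0.33 for both). In the other 8 of these sums the groups overlapped, with differences from -4.07 to 5.22 percentage points. Dendritic cells, which were not tested with edgeR, also reached it (-6.37 percentage points, exact permutation p = 0.33), as did some unnamed clusters.

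The wider list of iron handling held 60 genes, of which 26 to 52 were tested per type. Among them 1 was called higher and 8 lower, over all types. In stromal cells 1 was higher and 2 lower of 49 tested, where 5.85% of all genes were called. Lower were 3 of 37 in mature neutrophils, 2 of 42 in immature neutrophils and 1 of 37 in B cells. Over all genes 2.73%, 1.03% and 0.516% were called in these types. In stromal cells Hp, the haptoglobin that binds free haemoglobin, was 45.4 and 86.2 CPM in Ctrl and 1087 and 697 CPM in HLU (log2 fold change 3.38 ± 0.42, edgeR, adjusted p = 0.025). Mature neutrophils held Hp at 1519 to 2668 CPM, and the neutrophil transcripts given above moved with it. Steap3, a reductase of endosomal iron, fell in stromal cells from 32.5 and 30.3 CPM to 2.36 and 8.92 CPM (-2.66 ± 0.46, edgeR, adjusted p = 0.038). Bdh2, which makes a mammalian siderophore, gave 99 and 53 stromal UMIs in Ctrl and 0 and 1 in HLU (edgeR, adjusted p = 0.043), a ratio of Ctrl to HLU of 17.3 (95% counting interval 3.06 to 689).

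The calls in blood cells were lower in HLU, as were all 43 calls over all genes in B cells, 107 in immature and 248 in mature neutrophils. Lrp1, the receptor that clears haem bound to haemopexin, was 22.2, 32.2, 4.84 and 1.31 CPM in mature neutrophils (log2 fold change -3.14 ± 0.55, edgeR, adjusted p = 0.045) and 8.98, 11.4, 1.30 and 1.004 CPM in immature neutrophils (-3.18 ± 0.40, edgeR, adjusted p = 0.024). In B cells it gave 11, 25, 0 and 0 UMIs, at least 22.3-fold lower in HLU against 3 counts over the group (edgeR, adjusted p = 0.041). The metal importer Slc39a14 (-3.41 ± 0.57, edgeR, adjusted p = 0.039) and the ferroxidase Cp (-3.12 ± 0.50, edgeR, adjusted p = 0.034) fell in mature neutrophils, and the reductase Steap4 fell in immature ones (-3.47 ± 0.52, edgeR, adjusted p = 0.040). Stromal cells held Lrp1 at 238 to 520 CPM. Skeletal transcripts in B cells were at 0.116% and 0.131% of UMIs in Ctrl and 0.0021% and 0.0011% in HLU, beside the values in mature neutrophils given above, and their part in these 6 calls was not tested. Each of the 9 calls of the wider list was lost when a Ctrl library was left out. By edgeR, without Ctrl replicate 1 the adjusted p was 0.28 for Lrp1 in B cells, 0.056 for Steap4, 0.14 for Cp, 0.094 for Steap3 and 0.075 for Hp. Without Ctrl replicate 2 it was 0.58 for Steap4, 0.33 for Cp, 0.11 for Slc39a14, 0.23 for Bdh2, and 0.27 and 0.076 for Lrp1 in immature and mature neutrophils.

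Erythroid barcodes could be described in HLU only by level, since Ctrl held 9 and 16. In HLU replicate 2, where 447 barcodes allow a split by globin share, Fth1 was 32152 CPM at 5% to 20% globin, 15893 CPM at 20% to 50% and 1797 CPM above 50%. Ncoa4 ran the other way, at 204, 310 and 493 CPM, and Tfrc was 289, 774 and 566 CPM. Globin takes a growing part of the total along these steps, which by itself lowers the CPM of every other gene. The same steps in HLU replicate 1 gave Ncoa4 at 111, 200 and 104 CPM from 7, 16 and 36 barcodes, so the higher Ncoa4 at high globin was seen in 1 library.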

How the data were processed

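Raw counts of UMIs per gene and barcode were deposited for each library, made by the authors with Cell Ranger 6.0.0 and mm10 (reference 3.0.0), without normalization. The submitters' processing notes also name Seurat 4.1.0. Barcodes needed 1000 UMIs and at most 10% mitochondrial UMIs. Putative doublets (Scrublet in scanpy 1.11.5, 0.8% per 1000 barcodes) were left out. Libraries were integrated through canonical correlation anchors and clustered at resolution 1 with Seurat 5.3.0 (R 4.3.3), leaving the iron and globin genes out of the variable genes. Clusters took a name where 3 or more of its markers had a log2 fold change of 1 or more in 10% of their cells and the mean of the highest 5 reached 1.5. These naming thresholds were set after the data were seen, and at least 20 barcodes in every library were required for a test.

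Counts summed per library and type were tested with edgeR 4.0.16 (TMM, filterByExpr, quasi-likelihood, Benjamini-Hochberg adjustment over all genes of a type). DESeq2 1.42.0 and other settings were alternatives. The tests were tried on simulated data with known changes, drawn at a common spread per type. Of 200 genes changed by 2 on the log2 scale, edgeR recovered 67 in monocytes and 69 in mature neutrophils, the fewest. It recovered the most, 154, in stromal cells. Absence of a call in monocytes or mature neutrophils is thus weak evidence of no change. A member is named with its test where its adjusted p is under 0.05, or where the groups do not overlap and the log2 fold change is at least 1; other list genes where called. Members and lists were chosen with earlier results of these data known. Depth limits precision: median UMIs per kept barcode were 6164.5, 5814.5, 3758 and 6319, and counting intervals cover counting error only. Sequences came from GENCODE M21.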

Additional observations from a re-analysis of the deposited data

Results flagged for a closer look

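Some genes moved in opposite directions in 2 cell types, with both HLU libraries on 1 side of Ctrl in each type after TMM scaling. In unscaled CPM the groups overlapped for Fth1 in B cells. The difference between the types was not tested. For Fth1 the log2 fold change, HLU against Ctrl, was 0.71 in monocytes and -0.36 in B cells. For Ftl1 it was 0.28 in monocytes and -0.62 in B cells. For Trf it was 2.88 in stromal cells and -1.18 in mature neutrophils. For Ncoa4 it was 1.24 in chondrocytes and -0.77 in mature neutrophils. Of these only stromal Trf passed edgeR's test.

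Barcodes under 1000 UMIs, which enter no comparison, held Slc11a1 at a mean of 107.5 CPM in HLU (97.5 and 118 CPM) against 71.3 and 66.3 CPM in Ctrl. Ncoa4 in those barcodes had a mean of 147.8 CPM in HLU (152 and 143 CPM) against 63.5 and 86.4 CPM in Ctrl. HLU replicate 2 held 267 such barcodes and the other libraries 2143 to 2585.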

How the results depend on the processing

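Alternatives were followed for the 14 pairs of iron gene and cell type that were called, or whose groups lay apart by 1 or more on the log2 scale. The 9 called genes of the wider list were followed too. No log2 fold change among them turned its direction: 250 kept their side of the threshold, 29 lost the call and 21 gained it. In every one both HLU libraries lay on 1 side of both Ctrl libraries after TMM scaling. Leaving out a library could therefore hardly turn a sign, and the lack of turns in those fits follows from the choice of pairs. Tfrc in progenitors, outside these, turned from 2.18 to -0.55 without HLU replicate 2, and Slc40a1 and Fth1 in mature neutrophils took opposite signs according to the HLU library left out. Stromal Trf was called in 13 of 14 alternatives (log2 fold change 2.58 to 3.14), stromal Slc11a1 in 13 of 14 (2.43 to 3.22) and skeletal Slc11a1 in 8 of 13. For the stromal pairs 1 of the 14 was the Col1a1-led cluster alone. It was not among the planned settings, and its barcodes are part of the stromal sum, so it is no independent test. The counts moved more, and the cause was not tested. Genes called without the filter on low counts numbered 213 in B cells, 164 in T and NK cells, 0 in chondrocytes, 615 in immature and 944 in mature neutrophils, 246 in megakaryocytes, 361 in monocytes, 255 in neutrophil progenitors, 2566 in stromal and 1880 in skeletal cells. DESeq2 called 83 in B cells, 593 in chondrocytes, 223 in immature neutrophils, 39 in megakaryocytes, 71 in monocytes, 69 in progenitors, 1160 in stromal and 1335 in skeletal cells. At resolution 0.5 the counts were 1874 in B cells, 7 in monocytes and 7 in progenitors, and at resolution 2 they were 1976 in B cells and 1 in monocytes. Without integration they were 0 in chondrocytes, 50 in immature and 144 in mature neutrophils, 6 in monocytes, 1 in progenitors and 136 in skeletal cells. With doublets kept they were 1770 in B cells, 0 in chondrocytes, 284 in immature neutrophils, 41 in megakaryocytes, 0 in monocytes, 36 in progenitors and 189 in skeletal cells. Under the filter of the study they were 0 in chondrocytes, 8 in monocytes, 9 in progenitors, 215 in stromal and 139 in skeletal cells.

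Of the 8 iron genes, 3 were called in B cells at resolution 0.5, at resolution 2 and with doublets kept. Over all genes these settings called 1874 of 10578, 1976 of 10596 and 1770 of 10543 there. DESeq2 called 2 of the 8 in chondrocytes and 3 in skeletal cells, beside 593 of 12224 and 1335 of 13246 genes. Without the filter on low counts 2 of the 8 were called in immature neutrophils, 1 in progenitors, 4 in stromal and 3 in skeletal cells. Over all genes 615 of 16901, 255 of 16016, 2566 of 18403 and 1880 of 20150 were called there. In skeletal cells 0 of the 8 were called by edgeR without integration, with doublets kept and under the filter of the study. Those settings called 136 of 13416, 189 of 13553 and 139 of 13184 genes. The Fth1 share of ferritin, HLU minus Ctrl, turned to -11.8 percentage points in B cells at resolution 0.5 and -11.8 at resolution 2, to -10.9 with doublets kept, to 2.55 in immature neutrophils without integration and to -1.30 in progenitors under the filter of the study.

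Replicate numbers are shared between the groups, but nothing ties same-numbered mice, and deviations of same-numbered libraries correlated at -0.12 to 0.12. With the replicate block the genes called were 66 in B cells, 105 in chondrocytes, 264 in immature neutrophils and 32 in megakaryocytes. They were 33 in monocytes, 87 in progenitors and 189 in skeletal cells. Of the 8 iron genes 1 was called in immature neutrophils, where 264 of 10387 genes were called.

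Leaving out 1 library at a time, the genes called ranged from 25 to 1429 in B cells, 15 to 490 in T and NK cells, 5 to 622 in chondrocytes, 22 to 3472 in immature and 157 to 3937 in mature neutrophils, 23 to 509 in megakaryocytes, 0 to 3645 in monocytes, 13 to 2664 in progenitors, 101 to 2992 in stromal and 0 to 2635 in skeletal cells. The iron genes called ranged from 0 to 2, 0 to 1, 0 to 1, 0 to 5, 0 to 6, 0 to 0, 0 to 5, 0 to 3, 0 to 5 and 0 to 4 in the same order. The Fth1 share difference ranged from -1.51 to 9.19 percentage points in B cells, -18.7 to 13.2 in T and NK cells, -7.95 to 3.28 in chondrocytes, -9.56 to -2.08 in immature and -7.51 to -0.64 in mature neutrophils, -13.5 to -7.19 in megakaryocytes, -1.31 to 10.5 in monocytes, 1.62 to 8.81 in progenitors, -8.47 to 4.80 in stromal and -9.65 to 2.77 in skeletal cells. Each such fit takes the spread of a lone library from the other group. With 71 to 86 stromal and 92 to 102 chondrocyte barcodes in HLU, low genes there rest on few UMIs. A globin limit of 20% in place of 5% left the erythroid barcodes untested.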

Other observations

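Hmox1, the haem oxygenase that frees iron from haem, was highest in macrophages among the types given here, at 8917 and 8159 CPM in Ctrl and 13962 CPM in HLU replicate 2. Stromal cells held 2888, 3117, 2615 and 2194 CPM. Mature neutrophils held 1706, 2292 and 1986 CPM in the first 3 libraries and 395 CPM in HLU replicate 2. Neutrophil progenitors held 162, 224, 396 and 28.2 CPM. HLU replicate 2 had the lowest Hmox1 of the 4 libraries in 9 of the 9 types with at least 20 barcodes in every library, and HLU replicate 1 had the highest in 6.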
